A study of Mus musculus with 24 samples.

Results

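The genes described here are 33 genes of the lysosome, chosen by name as soluble hydrolases, their helper proteins, membrane proteins and a regulator of lysosomal genes, among 23394 gene IDs in the RNA-Seq tables. All 33 were found. By role they are 8 cysteine proteases, 3 other proteases, 7 glycosidases, 2 sulfatases, 6 genes of lipid handling, 5 membrane proteins, progranulin (*Grn*) and the transcription factor *Tfeb*. Of these, 28 passed a filter on low values (a mean of at least 0.5 FPKM over all libraries, met by 8350 genes), and *Ctsk*, *Glb1*, *Manba*, *Arsb* and *Tfeb* did not. FPKM are reads scaled to the length of the gene and the depth of the library.

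The study compared wild-type (WT) bone marrow-derived dendritic cells (BMDCs) with BMDCs of TTP-/- mice, which lack tristetraprolin, an RNA-binding protein encoded by *Zfp36* that speeds the decay of inflammatory mRNAs. Both genotypes were C57BL/6 mice, 9 to 12 weeks old. Marrow was grown in GM-CSF, and cells were left untreated (0 h) or given 10 ng/ml LPS, the bacterial ligand of Toll-like receptor 4, for 3, 6 or 9 h. Polyadenylated RNA was sequenced from 3 biological replicates in each of the 8 groups, 24 libraries in all. The mutation is present in all cells of a TTP-/- culture through its whole growth, and the sources describe no sorting of these cultures before RNA extraction.

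Lysosomes digest proteins, glycans and lipids taken up from outside or delivered by autophagy. Cathepsins and other hydrolases work in an acid lumen kept by a proton pump, the V-ATPase, and heavily glycosylated membrane proteins such as LAMP1 and LAMP2 line the organelle. In dendritic cells lysosomal proteases cut antigens and the invariant chain for presentation on MHC class II, and lysosomal activity is known to be held below that of macrophages. Many lysosomal genes carry an E-box in their promoters that TFEB and its relatives of the MiT/TFE family bind.

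The libraries held 19966708 to 25553546 reads assigned to genes (median 22559946), and the genotypes overlapped in depth at each time. *Zfp36* was below every WT library in every TTP-/- library at each time, with 87.4 to 102 FPKM against 201 to 213 FPKM before LPS, so that transcript from the locus was still counted in TTP-/- cells. None of 15 dendritic cell markers was at 0 reads in any library; the lowest count was 90 reads, for *Spib*, and *Itgax* and *Cd74* had at least 1572 and 109938 reads. WT replicate 1 at 3 h stood apart in the members, since the median member lay 0.33 above the mean of the other 2 libraries on the log2 scale, against -0.13 for WT replicate 2 and -0.29 for WT replicate 3. Its 16 macrophage markers summed to 315 RPKM against 136 and 102 RPKM. Over all genes the libraries farthest from the others of their group were WT replicate 1 at 6 h and TTP-/- replicate 3 at 0 h, with a median absolute difference of 0.34 and 0.31 on the log2 scale (0.21 for WT replicate 1 at 3 h). Counts of members and of the other gene lists are given with and without these 3 libraries, the choice of which was made after seeing the data. In bulk RNA fewer cells of a type and less RNA per cell cannot be told apart.

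The promoters of these genes are shown because the E-box CACGTG is the core of the element bound by TFEB. RefSeq promoter windows (GRCm38.p6, from 250 bases before to 50 after the start) existed for 29 of the 33 members. CACGTG, its own reverse complement, occurred in 9 of the 29 (31%), against 8.09% of all 27025 genes with a window and 12.5% of the 5582 matched genes that passed the filter. One window per gene follows on the gene's own strand, with the E-box in capitals.
Arsa, chr15:89477423-89477452, minus strand: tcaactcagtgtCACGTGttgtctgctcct
Ctsa, chr2:164833749-164833778, plus strand: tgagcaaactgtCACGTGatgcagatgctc
Ctsd, chr7:142387908-142387937, minus strand: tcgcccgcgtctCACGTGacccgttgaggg
Ctsl, chr13:64370739-64370768, minus strand: ggcgttagaagcCACGTGctgatctaaatt
Gaa, chr11:119267811-119267840, plus strand: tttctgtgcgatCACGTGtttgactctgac
Glb1, chr9:114401018-114401047, plus strand: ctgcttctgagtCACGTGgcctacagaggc
Lamp1, chr8:13159088-13159117, plus strand: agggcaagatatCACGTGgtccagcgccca
Lgmn, chr12:102439124-102439153, minus strand: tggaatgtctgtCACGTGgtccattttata
Mcoln1, chr8:3500462-3500491, plus strand: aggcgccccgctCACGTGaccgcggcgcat

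These E-boxes began between 245 bases before and 6 bases after the annotated start. *Lamp1* held 4 of them, and *Ctsa*, *Ctsd* and *Mcoln1* held 2 each. Longer forms that contain CACGTG were searched on both strands: GTCACGTG was found in 7 members (24.1%, against 2.55% of all genes and 5.34% of the 5582) and TCACGTGA in *Ctsa*, *Ctsd* and *Mcoln1* (10.3%, against 1.12% and 2.47%). The other E-box searched, CATGTG, was found in 7 members (24.1%, against 15.9% and 9.55%). Among tested members, 5 of 8 with CACGTG and 12 of 16 without it were higher in TTP-/- cells at 9 h (17.7% of all genes tested). The median log2 fold changes were 0.60 and 1.02. Of the 4 tested members that had no window, 3 were higher at 9 h. At 0, 3 and 6 h, 3, 0 and 3 of the 8 with CACGTG were higher. Without it 9, 5 and 10 of the 16 were (13.9%, 11.3% and 10.4% of all genes). A match in a window is a description of its letters and not a measured site.

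Levels were compared between genes on reads per kilobase of annotated exon (exon-based RPKM), since the deposited FPKM follow the length of the whole gene with introns. In untreated WT cells *Psap*, the precursor of the saposins that help glycosidases reach lipids, had the highest level of the 33 with 591 ± 110 RPKM (SD, n = 3), followed by *Ctss*, the protease that trims the invariant chain, with 348 ± 37.1 RPKM. *Laptm5*, a membrane protein of blood cells, had 294 ± 45.3 RPKM and *Lamp1* 235 ± 9.88 RPKM. The libraries of the neighbours *Ctss* (307.5 to 380.4 RPKM) and *Laptm5* (254.7 to 343.2 RPKM) overlapped, as did those of *Lamp1* and *Ctsz* (211 ± 44.1 RPKM). The lowest were *Tfeb* with 1.39 ± 0.292 RPKM and *Ctsk*, the collagen-cutting cathepsin of osteoclasts, with 0.353 ± 0.0874 RPKM. At 9 h *Ctsz* was the highest in WT cells with 313 ± 31.6 RPKM, above *Psap* with 244 ± 21.4 RPKM, and in TTP-/- cells *Psap* was the highest with 843 ± 116 RPKM.

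**Figure D1:**
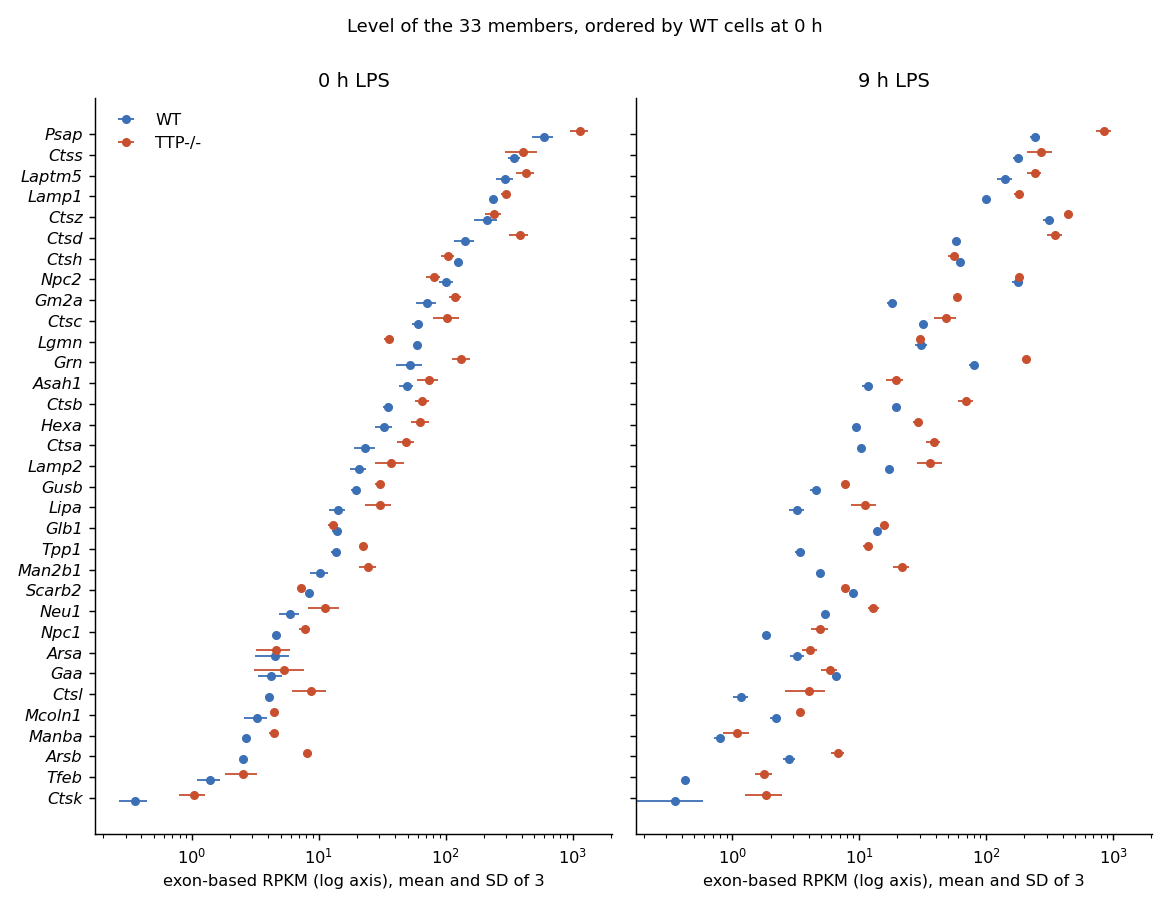
Exon-based RPKM (log axis) of the 33 members in WT (blue) and TTP-/- (red) BMDCs at 0 and 9 h; points are means and bars SD of 3 libraries, and genes are ordered by WT cells at 0 h. Psap leads at 0 h with 591 RPKM in the WT and 1147 RPKM in the TTP-/- cells, and Ctsk is last with 0.353 and 1.03 RPKM.

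The estimate was higher in TTP-/- than in WT cells for 23, 21, 22 and 23 of the 28 tested members at 0, 3, 6 and 9 h, and fewer passed the test. Before LPS 14 of the 28 tested were higher, as were 13.9% of all genes tested, and 3 were lower (15.5% of all genes). At 3 h 6 were higher (11.3%) and 2 lower (14.6%), at 6 h 15 were higher (10.4%) and 1 lower (6.7%), and at 9 h 20 were higher (17.7%) and 2 lower (19.1%). The median log2 fold change of the 28 was 0.60, 0.39, 0.51 and 0.83 at 0, 3, 6 and 9 h, against -0.04, -0.05, -0.06 and -0.05 over all genes tested. *Grn*, *Man2b1*, *Neu1* and *Tpp1* were higher at all 4 times, and 21 members were higher at 1 time or more. *Lgmn*, *Ctsh*, *Npc2* and *Scarb2* were the members that were lower at 1 time or more. *Arsa*, *Ctss* and *Gaa* passed the threshold at no time. All TTP-/- libraries lay above all WT libraries for 18, 13, 16 and 22 members at 0, 3, 6 and 9 h (21%, 18.4%, 17% and 22.6% of all genes) and below them for 4, 3, 2 and 3 members (24.1%, 25.9%, 20.1% and 28.6%).

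Without WT replicate 1, 19 members were higher and 3 lower at 3 h, where 17.9% and 23% of all genes were called. At 6 h 19 were higher and 2 lower without WT replicate 1 (12.5% and 12.6% of all genes), and at 0 h 17 were higher and 3 lower without TTP-/- replicate 3 (16.2% and 19.8%). At 6 h same-numbered libraries of the genotypes deviated together, which was read from the data and not from a label. With the number as a block 16 members were higher and 1 lower there (15% and 15.5% of all genes). Leaving out WT replicate 2 gave 2 higher members at 3 h, and leaving out TTP-/- replicate 1 or 3 gave 3. The count at 0 h was 8 without WT replicate 3, and that at 6 h was 8 without TTP-/- replicate 2. At 9 h the count of higher members stayed at 19 or 20 whichever library was left out, and the count of lower members was 0.

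**Figure D2:**
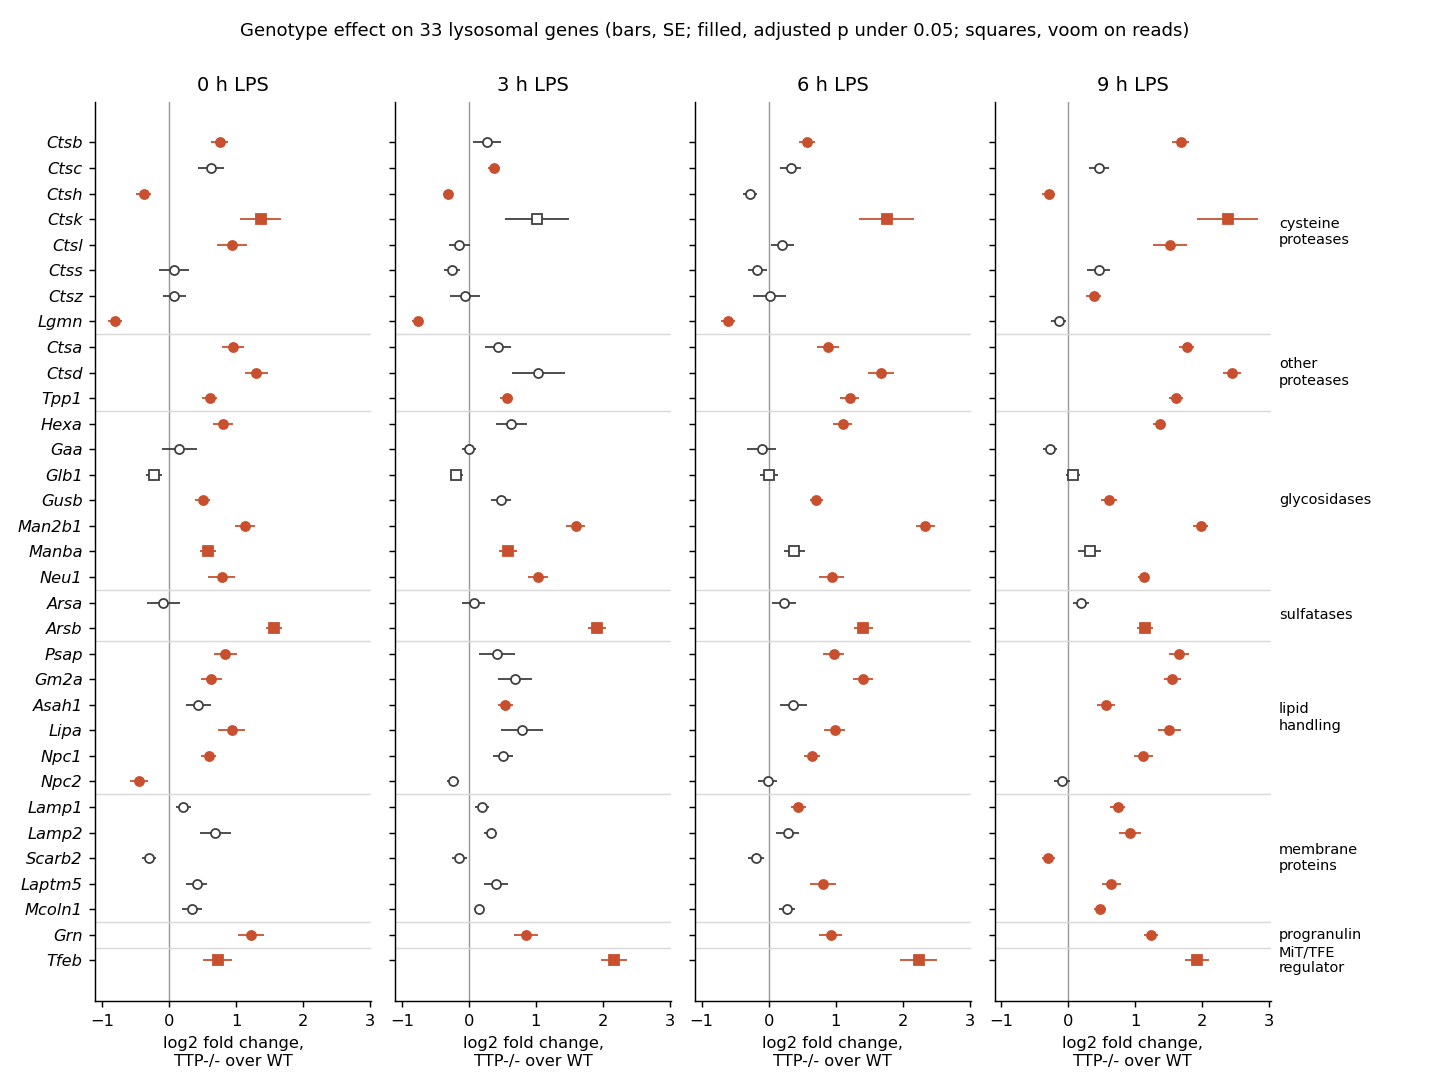
Log2 fold change of TTP-/- over WT cells (x axis) for each member (rows, by role) at each time, with bars for the standard error; filled symbols have an adjusted p under 0.05. Circles come from limma on log2(FPKM + 0.1), squares from limma-voom on recovered reads for the 5 members below the filter. Most symbols lie right of 0, with Ctsd at 2.44 the largest circle at 9 h, and Lgmn at -0.81 the lowest at 0 h.

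*Ctsd* (chromosome 7, 142375911 to 142388038, minus strand) encodes cathepsin D, the main aspartic protease of the lysosome. Before LPS it had 21.3, 23.1 and 16.8 FPKM in the WT and 59.1, 42.2 and 50.5 FPKM in the TTP-/- libraries. At 9 h it had 8.08, 9.13 and 7.95 FPKM in the WT and 45.9, 53.9 and 39.1 FPKM in the TTP-/- libraries. The groups did not overlap at either time, and the lowest TTP-/- library at 9 h was more than 4 times the highest WT library. The log2 fold change was 1.30 (SE 0.18, adjusted p = 0.00219) at 0 h, 1.67 (SE 0.20, adjusted p = 0.0013) at 6 h and 2.44 (SE 0.13, adjusted p = 2.67e-05) at 9 h, the largest of the 28 members at 9 h. At 3 h WT replicate 1 had 18.8 FPKM and the other WT libraries 7.81 and 6.10 FPKM, against 18.9 to 21.8 FPKM in the TTP-/- libraries. That difference, 1.03, did not pass (adjusted p = 0.101), and without WT replicate 1 it was 1.51 (adjusted p = 0.000519).

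*Ctsa*, which encodes the carboxypeptidase that protects beta-galactosidase and neuraminidase, had 13.9, 16.1 and 11.5 FPKM in the WT and 28.5, 22.5 and 29.3 FPKM in the TTP-/- libraries before LPS. At 9 h it had 6.30, 6.11 and 6.00 FPKM in the WT and 20.9, 24.5 and 18.3 FPKM in the TTP-/- libraries, and the log2 fold change was 1.76 (SE 0.12, adjusted p = 4.9e-05). The WT libraries were close together and far below all TTP-/- libraries. *Ctsa* overlaps *Pltp* on the opposite strand, which was counted at up to 2102 reads. *Tpp1*, the tripeptidyl peptidase whose loss causes a form of Batten disease, was higher at all 4 times, with a log2 fold change of 0.60, 0.56, 1.21 and 1.61 in turn. At 9 h its WT libraries had 2.68, 2.53 and 2.25 FPKM and its TTP-/- libraries 7.74, 8.64 and 6.98 FPKM (SE 0.11, adjusted p = 5.94e-05). The 3 h call of *Tpp1* was lost without WT replicate 2 (0.52), and the 6 h call of *Ctsa*, at 0.88, was lost without TTP-/- replicate 2 (0.89) or 3 (0.79).

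The cysteine proteases were divided. *Ctsb*, the abundant cathepsin B, was higher by 0.76, 0.58 and 1.68 on the log2 scale at 0, 6 and 9 h, and 0.28 at 3 h (adjusted p = 0.378, or 0.0237 at 0.50 without WT replicate 1). At 9 h it had 4.87, 5.58 and 5.23 FPKM in the WT and 17.1, 19.7 and 14.5 FPKM in the TTP-/- libraries. Its WT libraries lay within 1 FPKM of each other and all TTP-/- libraries lay far above them. The 6 h call was lost when WT replicate 2, TTP-/- replicate 2 or TTP-/- replicate 3 was left out, with estimates from 0.50 to 0.64 over all libraries left out. *Ctsl*, cathepsin L, was higher at 0 h (0.94, SE 0.22, adjusted p = 0.0201) and at 9 h (1.52, SE 0.25, adjusted p = 0.00338), with -0.15 at 3 h and 0.20 at 6 h, where the groups overlapped. Its TTP-/- libraries were spread, with 10.1, 7.48 and 5.34 FPKM at 0 h and 3.16, 4.93 and 2.38 FPKM at 9 h, against 3.45 to 4.03 and 0.981 to 1.35 FPKM in WT cells. The 0 h call of *Ctsl* was lost without any 1 WT library and without TTP-/- replicate 2 (0.72 to 1.17 over all 6), and the 9 h call was kept without any of the 6 libraries.

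*Lgmn* (chromosome 12, 102394084 to 102439813, minus strand) encodes legumain, an asparaginyl endopeptidase that processes cathepsins and antigens. It had 3.00, 3.18 and 3.18 FPKM in the WT and 1.66, 1.67 and 1.88 FPKM in the TTP-/- libraries before LPS. These groups were far apart, and legumain was the only member lower at 0, 3 and 6 h, with log2 fold changes of -0.81 (SE 0.10, adjusted p = 0.00165), -0.76 (SE 0.08, adjusted p = 0.00165) and -0.60 (SE 0.10, adjusted p = 0.00705). The calls were kept without any single library. At 9 h it had 1.68, 1.81 and 1.38 FPKM in the WT and 1.52, 1.496 and 1.35 FPKM in the TTP-/- libraries, and the groups overlapped (-0.14, SE 0.11, adjusted p = 0.369).

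*Ctsh*, an aminopeptidase, was lower by smaller amounts, -0.38, -0.32 and -0.29 at 0, 3 and 9 h (adjusted p = 0.0433, 0.0222 and 0.0434), calls that were lost on values rescaled to TPM and without most single libraries (at 9 h without each of the 6, with estimates from -0.33 to -0.23). *Ctsc*, the activator of granule serine proteases, was called at 3 h at 0.38 (adjusted p = 0.0263), lost when WT replicate 2, WT replicate 3, TTP-/- replicate 1 or TTP-/- replicate 3 was left out (0.32 to 0.44 over all 6 libraries). With the replicate number as a block it was also called at 6 h at 0.33 (adjusted p = 0.0392). *Ctsz*, cathepsin X, was called at 9 h at 0.38 (adjusted p = 0.0399), with 39.6, 47.0 and 35.5 FPKM in the WT and 51.4, 54.3 and 51.8 FPKM in the TTP-/- libraries, and the call was kept without WT replicate 2 and lost without each of the other 5 libraries (0.28 to 0.48). *Ctss* had log2 fold changes of 0.07, -0.25, -0.17 and 0.45 and passed at no time. *Ctsk* was rare, with 14, 16 and 9 reads in the WT and 47, 36 and 30 reads in the TTP-/- libraries at 0 h, and 5, 10 and 20 against 63, 74 and 44 reads at 9 h. On the recovered reads limma-voom gave 1.37 (SE 0.31, adjusted p = 0.00838) and 2.38 (SE 0.45, adjusted p = 0.000905) at these times, where 17.9% and 21.3% of all genes were higher by that test. At 3 h it gave 1.01 (adjusted p = 0.14), or 1.61 (adjusted p = 0.0094) without WT replicate 1, where 22.1% of all genes were higher.

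Glycosidases take sugars off glycoproteins and glycolipids. *Man2b1* (chromosome 8, 85083270 to 85098282, plus strand), lysosomal alpha-mannosidase, had 2.16, 2.503 and 2.46 FPKM in the WT and 11.1, 14.5 and 11.9 FPKM in the TTP-/- libraries at 6 h. None of the other 27 members past the filter had as large a difference at 3 or 6 h. Its log2 fold change was 1.13, 1.59, 2.34 and 1.97 at 0, 3, 6 and 9 h (SE 0.15, 0.14, 0.14 and 0.11, adjusted p = 0.00206, 0.000773, 7.64e-05 and 2.66e-05), and each call was kept without any single library. *Neu1*, the sialidase, had log2 fold changes of 0.79, 1.03, 0.94 and 1.12. At 9 h it had 4.40, 4.51 and 4.35 FPKM in the WT and 10.1, 8.95 and 10.3 FPKM in the TTP-/- libraries, groups set well apart. Its 0 h call was lost without WT replicate 1 or 3 (0.59 to 0.91 over all libraries left out), and its 6 h call without TTP-/- replicate 2 (0.84).

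*Hexa*, the alpha subunit of beta-hexosaminidase, was higher at 0, 6 and 9 h by 0.81, 1.11 and 1.37, and *Gusb*, beta-glucuronidase, by 0.50, 0.71 and 0.61. *Hexa* at 9 h had 0.778, 0.775 and 0.768 FPKM in the WT and 2.23, 2.34 and 1.90 FPKM in the TTP-/- libraries. At 3 h both were uncalled, *Hexa* at 0.63 (adjusted p = 0.0929) and *Gusb* at 0.48 (adjusted p = 0.0589), and without WT replicate 1 *Hexa* was at 0.90 (adjusted p = 0.00184) and *Gusb* at 0.63 (adjusted p = 0.00541). The 0 h call of *Gusb* was lost when WT replicate 1, WT replicate 3 or TTP-/- replicate 1 was left out (0.46 to 0.56 over all 6). *Gaa*, acid alpha-glucosidase, had 0.15, 0.00, -0.11 and -0.27 and passed at no time. The rarer glycosidases were read from recovered reads. *Manba*, beta-mannosidase, was higher at 0 h (0.58, adjusted p = 0.0056) and 3 h (0.58, adjusted p = 0.0087), with 0.38 and 0.32 at 6 and 9 h (0.62 at 3 h without WT replicate 1), and *Glb1*, beta-galactosidase, had -0.23, -0.19, 0.01 and 0.07 with no call. *Glb1* shares its span with *Tmppe* on the same strand, so that its reads are uncertain.

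The sulfatases differed from each other. *Arsa*, which takes sulfate off sulfatides, had log2 fold changes of -0.09, 0.07, 0.23 and 0.19 and passed at no time, although it reached 0.27 (adjusted p = 0.0379) at 3 h without WT replicate 1. *Arsb*, which acts on dermatan and chondroitin sulfate, had 397, 362 and 341 reads in the WT and 1276, 1123 and 1170 reads in the TTP-/- libraries before LPS. The TTP-/- libraries of *Arsb* were above all WT libraries at each time. With limma-voom its log2 fold change was 1.56, 1.91, 1.41 and 1.14 (SE 0.12, 0.13, 0.14 and 0.12, adjusted p = 4.64e-05, 1.67e-05, 3.58e-05 and 5.75e-06), and without WT replicate 1 it was 1.96 at 3 h. *Arsb* overlaps *Gm26527* on the opposite strand, which had up to 798 reads, and strand use in the counting is not given in the sources used here.

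Of the genes of lipid handling, *Psap* (chromosome 10, 60277627 to 60302597, plus strand) had 65.7, 78.8 and 56.7 FPKM in the WT and 136, 99.5 and 124 FPKM in the TTP-/- libraries at 0 h. At 9 h it had 26.3, 32.2 and 25.4 FPKM in the WT and 92.0, 100.4 and 72.6 FPKM in the TTP-/- libraries, with no overlap at either time. Its log2 fold change was 0.84, 0.97 and 1.65 at 0, 6 and 9 h (SE 0.18, 0.15 and 0.15, adjusted p = 0.0124, 0.00487 and 0.000196). At 3 h, where WT replicate 1 had 55.1 FPKM and all other libraries of both genotypes 25.9 to 53.2 FPKM, it was 0.42 (adjusted p = 0.295) with that library and 0.73 (adjusted p = 0.00598) without it. The 0 h call of *Psap* was lost without WT replicate 3 (0.72).

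*Gm2a*, the activator that lifts the ganglioside GM2 to hexosaminidase, was higher at 0, 6 and 9 h by 0.63, 1.40 and 1.55. At 6 h it had 3.72, 5.10 and 4.86 FPKM in the WT and 11.3, 13.1 and 12.0 FPKM in the TTP-/- libraries, with every TTP-/- library above every WT library. *Lipa*, lysosomal acid lipase, had 0.93, 0.99 and 1.51 at the same times, and *Npc1*, the membrane transporter for cholesterol, 0.59, 0.65 and 1.12. At 3 h these were uncalled with 0.69, 0.80 and 0.51, and without WT replicate 1 *Gm2a* had 0.98 (adjusted p = 0.00171), *Lipa* 1.15 (adjusted p = 0.00333) and *Npc1* 0.63 (adjusted p = 0.0148). The 0 h call of *Gm2a* was lost when WT replicate 1, WT replicate 3 or TTP-/- replicate 1 was left out (0.48 to 0.71 over all 6), that of *Lipa* without WT replicate 3 (0.89), and the 6 h call of *Npc1* without TTP-/- replicate 1 (0.61) or 2 (0.65). *Npc1*, with 281 to 2402 reads, overlaps *3110002H16Rik* on the opposite strand, which was counted at up to 1246 reads. *Asah1*, acid ceramidase, was called at 3 h (0.54) and 9 h (0.56), the former lost when WT replicate 2, TTP-/- replicate 1 or TTP-/- replicate 3 was left out (0.46 to 0.65 over all 6).

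*Npc2*, the soluble partner that hands cholesterol to NPC1, did not follow *Npc1*. It had 28.4, 34.4 and 28.9 FPKM in the WT and 20.9, 20.9 and 25.3 FPKM in the TTP-/- libraries at 0 h, a log2 fold change of -0.45 (SE 0.13, adjusted p = 0.0438). The call was lost on TPM and without each of the 6 libraries but TTP-/- replicate 3 (-0.54 to -0.36). At 6 and 9 h the values were -0.02 and -0.10, and the groups overlapped.

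Among the membrane proteins, none of the 5 was called at 0 or 3 h, 2 were higher at 6 h, and 4 were higher and 1 lower at 9 h. *Lamp1* at 9 h had 17.7, 17.98 and 15.7 FPKM in the WT and 28.6, 31.6 and 25.5 FPKM in the TTP-/- libraries, and the log2 fold change was 0.74 (SE 0.11, adjusted p = 0.00195). *Lamp2*, which also serves in autophagy, had 0.92 (adjusted p = 0.00466), *Laptm5* 0.64 (adjusted p = 0.0112) and *Mcoln1*, the calcium channel TRPML1, 0.47 (adjusted p = 0.00525), all with no overlap between the groups and kept without any single library. At 6 h *Lamp1* (0.44) and *Laptm5* (0.81) were called, *Lamp1* only in the full set and without WT replicate 1, and *Laptm5* only in the full set and without WT replicate 1 or 2. *Scarb2*, the receptor that carries glucocerebrosidase to the lysosome, was lower at 9 h by a small amount (-0.30, SE 0.10, adjusted p = 0.0472), a call lost on TPM and without each of the 6 libraries (-0.35 to -0.24).

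*Grn* (chromosome 11, 102430315 to 102437048, plus strand) encodes progranulin, a secreted protein that is cut to granulins in lysosomes. It had 27.6, 34.2 and 22.3 FPKM in the WT and 73.6, 54.1 and 68.3 FPKM in the TTP-/- libraries at 0 h, and 45.9, 43.2 and 39.8 FPKM in the WT and 107, 108 and 90.0 FPKM in the TTP-/- libraries at 9 h. No TTP-/- library overlapped a WT library at any time. The log2 fold change was 1.23, 0.86, 0.93 and 1.24 (SE 0.19, 0.18, 0.17 and 0.11), and the calls at 0 and 9 h were kept without any single library. The 3 h call was lost without WT replicate 2 or any TTP-/- library (0.68 to 1.04), and the 6 h call without TTP-/- replicate 2 (0.87).

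*Tfeb*, the MiT/TFE regulator, was near the lower end of the range, and its values come from recovered reads. It had 183, 237 and 152 reads in the WT and 310, 273 and 466 reads in the TTP-/- libraries at 0 h, and 35, 22 and 27 reads in the WT and 139, 123 and 147 reads in the TTP-/- libraries at 3 h. The TTP-/- libraries were above the WT libraries at every time with no overlap. With limma-voom its log2 fold change was 0.72, 2.16, 2.24 and 1.92 at 0, 3, 6 and 9 h (SE 0.21, 0.20, 0.28 and 0.17, adjusted p = 0.0285, 7.34e-05, 0.00016 and 1.63e-06), against 16.4%, 14.7% and 21.3% of all genes higher by that test at 3, 6 and 9 h. Without WT replicate 1 the value at 3 h was 2.33.

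**Figure D3:**
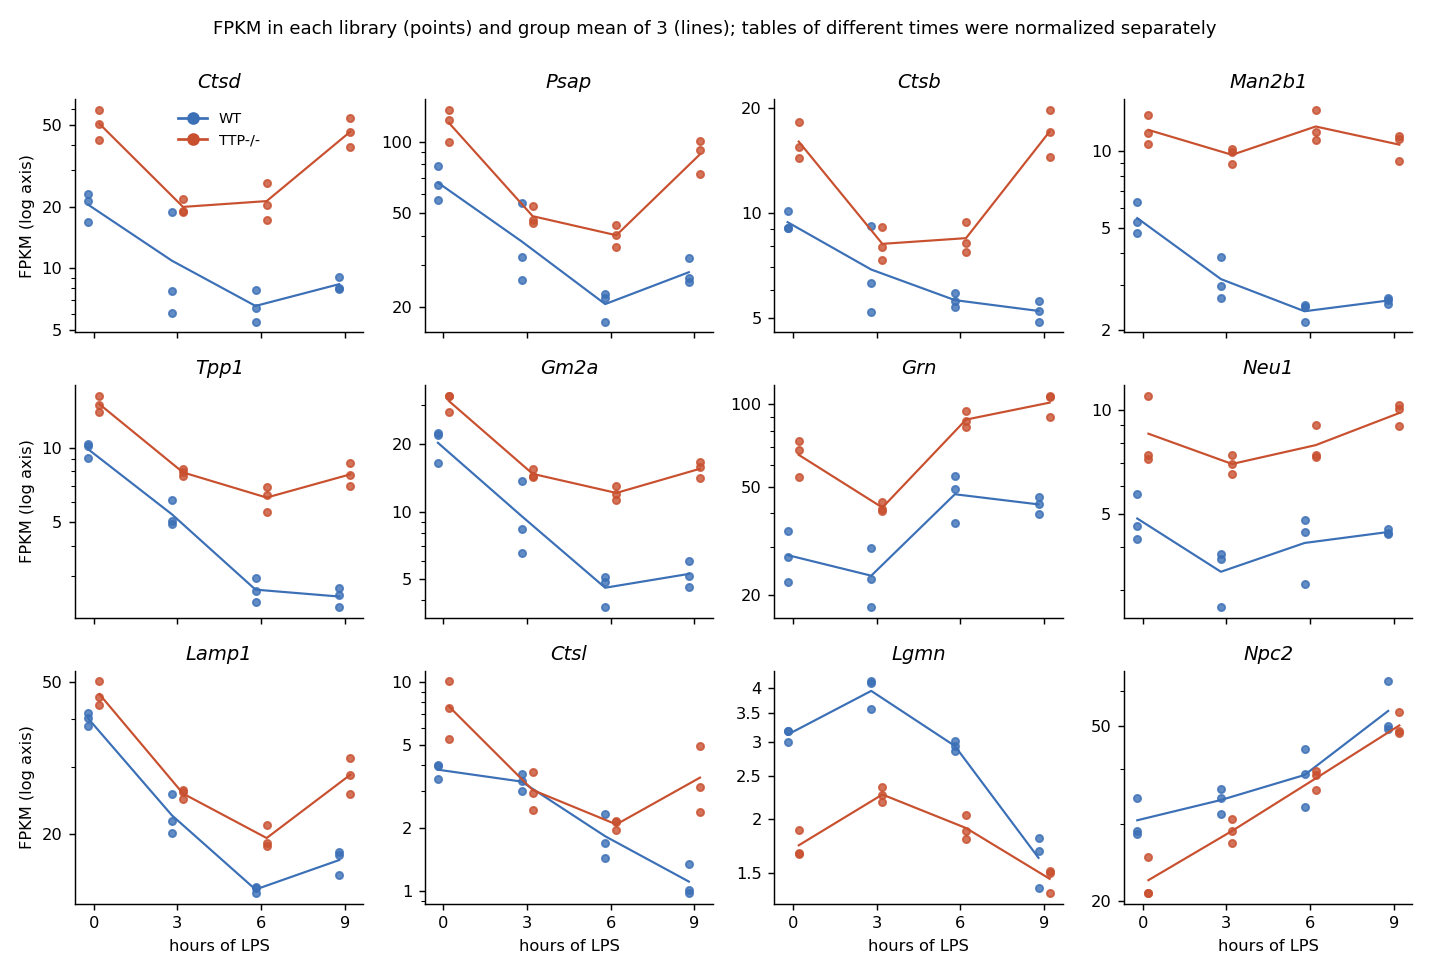
FPKM (log axis) of 12 members in each library against hours of LPS, WT in blue and TTP-/- in red, with lines through the means of 3 libraries; the 4 tables were normalized separately. WT replicate 1 at 3 h sits with the TTP-/- libraries for Ctsd (18.8 FPKM) and Psap (55.1 FPKM). In the Lgmn and Npc2 panels the WT mean is the higher at every time, with log2 fold changes of -0.81 and -0.45 at 0 h.

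Levels over LPS time were set side by side without a test, since each time was normalized on its own. In WT cells 18 of the 28 members were below their 0 h libraries at 3 h and 20 at 6 h with no overlap (50.4% and 52.4% of all genes), and 2 were above at each (16.4% and 13.7%). In TTP-/- cells 23 were below at 3 h and 18 at 6 h (51.7% and 52.9%), and 2 were above at each (17.4% and 16.7%). Without WT replicate 1 of 3 h, 23 were below and 3 above in WT cells at 3 h (56.7% and 18.6%). In WT cells 20 of the 28 members had all 3 libraries of 9 h below all 3 of 0 h and 4 had them above, against 56.9% and 14.8% of all genes, and the median ratio was -1.02 on the log2 scale (all genes -0.45). In TTP-/- cells 14 were below and 3 above (53.6% and 16.3% of all genes), with a median of -0.41 (all genes -0.43). From 3 to 9 h 5 members were higher and 9 lower in WT cells (19.1% and 30% of all genes), with a median of -0.33, and 13 were higher and 3 lower in TTP-/- cells (24.5% and 36.7%), with a median of 0.30. Without WT replicate 1 of 3 h the WT counts were 7 and 9 (25.4% and 38.1%), with a median of -0.05. The difference between genotypes in these ratios was not tested for 3 against 9 h. In TTP-/- cells *Ctsd* had a mean of 19.9 FPKM at 3 h and 46.3 FPKM at 9 h, and *Ctsb* 8.14 and 17.1 FPKM. In WT cells the *Ctsd* libraries of 9 h, at 7.95 to 9.13 FPKM, lay below the 18.8 FPKM of WT replicate 1 at 3 h and above the other WT libraries of 3 h. *Ctsb* had 9.15, 6.27 and 5.19 FPKM at 3 h and 4.87 to 5.58 FPKM at 9 h in WT cells, which overlapped. *Ctsz*, *Grn* and *Npc2* were above 0 h at 9 h in both genotypes, *Npc2* at 54.2 FPKM against 30.6 FPKM in WT cells. On reads scaled only to library size the same counts differed by at most 2 members.

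The difference of the genotype effect between times was tested in 1 fit of all 24 libraries. Where a replicate was left out of this fit, it was left out of 1 genotype at every time together. Between 3 and 0 h no member differed by limma, with 3.07% of all genes more positive and 1.92% more negative, and at an unadjusted p under 0.05 *Ctsb*, *Ctsl* and *Man2b1* did (-0.48, -1.09 and 0.46). Between 6 and 0 h *Man2b1* (1.21, SE 0.20, adjusted p = 0.00057) and *Tpp1* (0.61, SE 0.16, adjusted p = 0.0222) were more positive, and no member was more negative, against 5.5% and 2.84% of all genes. The *Man2b1* call was kept in every setting, and that of *Tpp1* was lost with a pseudocount of 1 (0.43) and when WT replicate 2, WT replicate 3, TTP-/- replicate 1 or TTP-/- replicate 2 was left out (0.53 to 0.65 over all 6). Between 9 and 0 h 7 members were more positive and none more negative, against 6% and 3.77% of all genes. In order of size they were *Tpp1* (1.00), *Gm2a* (0.93), *Ctsb* (0.92), *Man2b1* (0.84), *Ctsa* (0.81), *Lgmn* (0.67) and *Lamp1* (0.53), and the estimate was above 0 in 26 of the 28. The *Ctsa* call was lost with the replicate block (adjusted p = 0.0579), on TPM (adjusted p = 0.0612) and when WT replicate 2, TTP-/- replicate 1 or TTP-/- replicate 2 was left out (0.58 to 0.99 over all 6). For *Lgmn* a positive value is the shrinking of its lower level. *Tpp1* and *Lgmn* were kept without any single library, and the count was 2 when WT replicate 2 was left out and 3 when TTP-/- replicate 1 or 2 was. *Ctsd* had the largest estimate (1.14, SE 0.39) and did not pass (adjusted p = 0.0778).

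**Figure D4:**
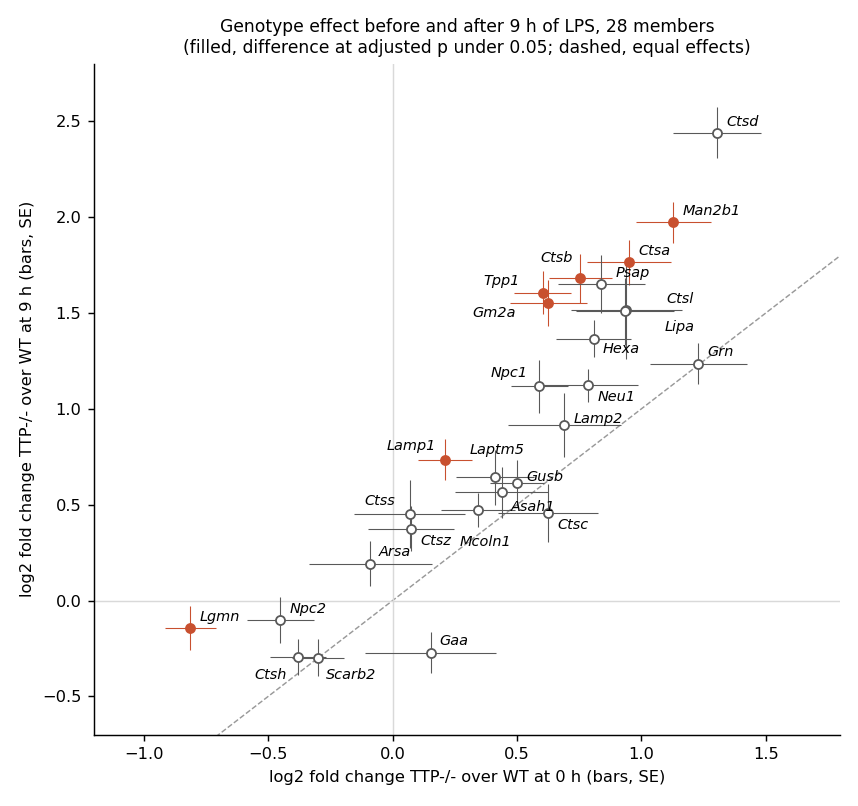
Log2 fold change of TTP-/- over WT cells at 0 h (x axis) against 9 h (y axis) for the 28 tested members, with standard errors; filled points are the 7 members whose 2 effects differ at an adjusted p under 0.05, and the dashed line marks equal effects. Tpp1, Gm2a and Ctsb lie above the line by 0.92 to 1.00, and Grn lies on it.

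Other genes of the lysosome were counted from fixed lists beside the 33. The shares of all genes to read the counts of the full set against are those given above, 13.9%, 11.3%, 10.4% and 17.7% higher and 15.5%, 14.6%, 6.7% and 19.1% lower, in order of time. Without WT replicate 1 they were 17.9% higher and 23% lower at 3 h and 12.5% and 12.6% at 6 h. Without TTP-/- replicate 3 they were 16.2% and 19.8% at 0 h, and with the replicate block 15% and 15.5% at 6 h. Among 28 tested further hydrolases, 10, 6, 9 and 17 were higher at 0, 3, 6 and 9 h and 4, 4, 3 and 5 lower, with medians of 0.45, 0.21, 0.29 and 0.53. The counts of lower genes were near the share of all genes. Without WT replicate 1, 13 were higher and 6 lower at 3 h and 9 and 4 at 6 h, and without TTP-/- replicate 3, 12 were higher and 3 lower at 0 h. *Gla*, alpha-galactosidase A, had 0.263 ± 0.00909 FPKM in the WT and 1.84 ± 0.396 FPKM in the TTP-/- cells at 9 h (log2 fold change 2.40, SE 0.15, adjusted p = 3.73e-05), and *Ppt2*, a thioesterase, had 2.15, and both were also higher at 0, 3 and 6 h (1.55, 1.43 and 1.41 for *Gla* and 1.31, 1.29 and 1.74 for *Ppt2*). Of 18 tested further membrane proteins, 10, 7, 9 and 12 were higher and 1 lower at each time (11 higher and 2 lower at 3 h and 9 and 1 at 6 h without WT replicate 1, 10 and 2 at 0 h without TTP-/- replicate 3). *Cd68*, a macrophage-rich relative of the LAMPs, had 9.65 ± 0.491 FPKM in the WT and 74.8 ± 19.4 FPKM in the TTP-/- cells at 9 h (2.91, SE 0.18, adjusted p = 3.9e-05), was higher at 0 and 6 h (1.34 and 1.91) and did not pass at 3 h (1.28, adjusted p = 0.0919). *Slc11a1*, the metal transporter NRAMP1 of phagosomes, was higher at 0, 6 and 9 h (1.197, 1.78 and 2.40) and had 1.19 at 3 h (adjusted p = 0.0789). *Slc36a1*, an amino acid transporter, was higher at all 4 times (1.58, 1.35, 1.47 and 2.09), as was *Cln3*, a membrane protein lost in Batten disease (1.30, 1.04, 1.81 and 1.67).

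Of 16 tested V-ATPase subunits, 6, 5, 6 and 9 were higher and 1, 1, 1 and 2 lower (7 higher and 2 lower at 3 and at 6 h without WT replicate 1, 8 and 0 at 0 h without TTP-/- replicate 3). *Tcirg1* was higher at all 4 times (1.17, 0.55, 0.80 and 1.39), as were *Atp6v0d2*, the subunit of macrophages and osteoclasts (1.48, 1.11, 0.93 and 1.92), and *Atp6v0b* (0.74, 0.89, 1.01 and 1.33). The 13 tested genes that sort hydrolases through the mannose 6-phosphate route had 3, 1, 1 and 2 higher and 1, 1, 1 and 2 lower, with medians of 0.02, 0.03, 0.07 and 0.06, and these counts were near the shares of all genes. Without WT replicate 1 they were 2 and 1 at 3 and at 6 h, and without TTP-/- replicate 3, 3 and 2 at 0 h. *Nagpa*, which uncovers the sorting sugar, was higher at 0, 6 and 9 h (0.74, 0.83 and 1.00) and *Gnptab*, which adds it, at 0, 3 and 9 h (0.63, 0.66 and 0.55). The adaptor *Gga2* was lower at 0 and 9 h (-0.71 and -0.48), and *Gga3* at 3, 6 and 9 h (-0.42, -0.64 and -0.63). Of 14 tested genes of MiT/TFE and mTORC1 signalling at the lysosome, 5, 3, 1 and 3 were higher and 2 lower at each time (3 and 3 at 3 h and 2 and 2 at 6 h without WT replicate 1, 5 and 2 at 0 h without TTP-/- replicate 3). The Ragulator subunit *Lamtor4* was higher at all 4 times (1.19, 1.02, 1.44 and 0.88), and both the mTORC1 inhibitor *Tsc1* (-1.12, -0.48, -0.65 and -0.61) and *Mtor* itself (-0.89, -0.55, -0.49 and -0.61) were lower at all 4 times.

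Of 14 tested autophagy genes 2, 0, 0 and 3 were higher and 1, 1, 0 and 0 lower, counts near or under the shares of all genes. Without WT replicate 1 the counts were 1 higher and 3 lower at 3 h and 0 and 0 at 6 h. Without TTP-/- replicate 3, 2 were higher and 5 lower at 0 h, the latter above the 19.8% of all genes. *Atg9a* was at 0.80 and 0.76 and *Atg3* at 0.64 and 0.37 at 0 and 9 h, and *Gabarapl1* at -0.37 at 3 h. Of 6 tested cathepsin inhibitors, 3, 4, 4 and 4 were higher and 1 lower at each time, with the same counts without those 3 libraries. The stefin *Stfa2* stood at 3.01, 4.05, 3.64 and 2.92, its relative *Stfa3* at 2.23, 2.85, 2.51 and 2.27, and *Cst7*, cystatin F, at 1.86, 2.37, 2.72 and 2.62. With the replicate block at 6 h, 12 further hydrolases were higher and 5 lower, and 3 sorting genes, 3 signalling genes, 5 cathepsin inhibitors and 1 autophagy gene were higher. Stefins are near-identical copies, and stefin reads may be split between them.

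Most tested markers of macrophages, neutrophils, eosinophils, basophils and mast cells had a higher estimate in TTP-/- than in WT cells at each time, as did most members. Of 8 B and T lymphocyte markers 1 was tested, and it was lower at each time (-1.90, -0.99, -0.86 and -1.33). *Cd8a* had the most reads of the 8 (23 to 194), and no other had more than 18. The sum of all 8 was lower in TTP-/- libraries at 0 h (1.091 to 1.196 against 1.569 to 2.236 RPKM) and 9 h (1.529 to 2.006 against 2.473 to 2.717 RPKM). At 3 h it was higher (1.318 to 1.453 against 1.175 to 1.284 RPKM), and at 6 h the genotypes overlapped. Of 10 tested macrophage markers 9, 2, 9 and 9 were higher in TTP-/- cells and 1 lower at each time (9 and 1 at 3 h without WT replicate 1), and the sum of all 16 was 188 to 261 RPKM in the WT and 503 to 634 RPKM in the TTP-/- libraries at 0 h and 90.3 to 95.3 against 440 to 640 RPKM at 9 h. At 3 h it was 102 to 315 RPKM in the WT and 373 to 445 RPKM in the TTP-/- libraries, and at 6 h 97.4 to 103 against 236 to 323 RPKM. *Cd163* was at 0 reads in 6 libraries, and no other of the 16 was at 0 in any. *Cd68* was counted both here and among the further membrane proteins. Neutrophil markers (12 of 13 tested at 0 h and 13 of 13 later) and eosinophil, basophil and mast cell markers (7 of 8 and then 8 of 8) were also higher, with neutrophil sums of 571 to 757 RPKM against 3689 to 5562 RPKM at 0 h and 193 to 223 against 1445 to 1650 RPKM at 9 h. Of 15 dendritic cell markers 10, 11, 9 and 13 were lower and 0, 1, 2 and 1 higher (11 lower and 2 higher at 3 and at 6 h without WT replicate 1, 13 and 0 at 0 h without TTP-/- replicate 3). The part of these cells in the results on the lysosomal genes was not tested.

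The 33 members together took 0.793 ± 0.0747% of assigned reads in the WT and 1.23 ± 0.134% in TTP-/- cells at 0 h (SD, n = 3). At 3 h the shares were 0.615%, 0.487% and 0.436% in the WT and 0.686%, 0.659% and 0.653% in TTP-/- libraries, with WT replicate 1 the highest of the WT libraries. At 6 h they were 0.413 ± 0.0202% and 0.663 ± 0.0465%, and at 9 h 0.487 ± 0.0222% and 0.985 ± 0.0837%. The genotypes did not overlap at any time, and *Psap*, with 30618 to 47228 reads in the WT and 60735 to 87000 reads in the TTP-/- libraries at 0 h, gave the most reads of any member at that time.

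**Figure D5:**
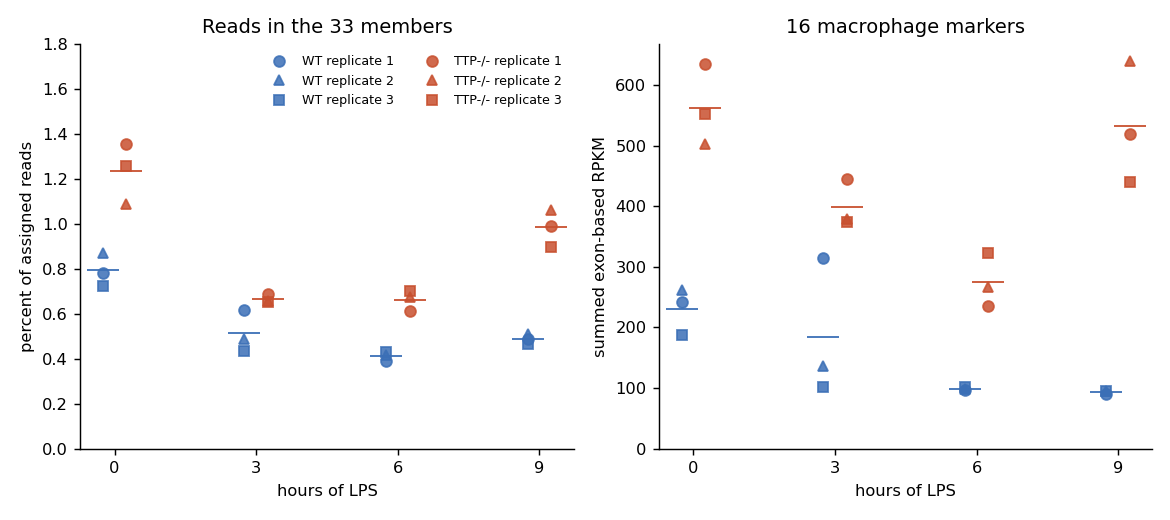
Percent of assigned reads in the 33 members (left) and summed exon-based RPKM of 16 macrophage markers (right) in each library against hours of LPS; symbols mark the replicate, bars the group mean, WT in blue and TTP-/- in red. In both panels the TTP-/- libraries of each time are all above the WT ones, and WT replicate 1 at 3 h is the highest WT library of 3 h, with 0.615% and 315 RPKM.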

How the data were processed

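RNA came from WT and TTP-/- BMDCs, and polyA libraries were made with the SENSE mRNA-Seq kit. Per the labels and the study's methods, the authors used cutadapt for trimming, STAR 2.5 for alignment against GRCm38, and DESeq2. The counter, the annotation and the use of strand are not given in the sources used here. The authors deposited FPKM for each library in 1 table per time, scaled within the 6 libraries of that time. The deposited FPKM follow division by the whole gene span in 90.7 to 90.8% of genes. The deposited mean signal per gene (size-factor-scaled reads averaged over 6 libraries) served to recover reads, and 100% of values lay within 0.05 of a whole number. The same tables hold the authors' fold changes, standard errors, statistics and p-values, which were not used. Exon lengths are the union of GENCODE M21 exons. The tables named 16878 IDs and GENCODE a further 6261.

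TTP-/- was compared with WT on log2(FPKM + 0.1) with limma 3.58.1 in R 4.3.3 (mean-variance trend). Each time was fitted alone on its 6 libraries. Genes averaging 0.5 FPKM or more entered (8346 to 8350 a time), and p-values were adjusted over them by Benjamini and Hochberg, with a threshold of 0.05. A fold change on the log2(FPKM + 0.1) scale understates the change of low genes. Differences of effects came from 1 fit of 24 libraries. Members below the filter were tested by limma-voom on recovered reads, for genes averaging 10 reads or more. The limma fits on FPKM were run on simulated reads with known genotype changes and the same spread for all genes. The simulation held no library that stands apart and no effect that changes over time, and voom was not run on it. The study calls the replicates biological, but no label ties a replicate number to an animal. The p-values therefore cover the spread of these libraries only, and whether that is a spread between animals is not given. The alternatives tried were other pseudocounts (1 and 0.01), other filters (none, and 5 FPKM), TPM, a common median, exon lengths, no trend, voom, a replicate block, 1 fit, an adjusted p of 0.01 and the loss of each library. For differences of effects, a replicate of 1 genotype was left out at every time together.

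Named genes were all 33 members and, per pathway list and time, up to 2 genes past the threshold with the largest change. Members and lists were chosen with earlier results of these data known. Same-numbered WT and TTP-/- libraries deviated together at 6 h (correlations 0.504, 0.217 and 0.499), which is taken from the data and not from a label, and not in every pair of any other time. No libraries were duplicates. Of the members, 13 overlap another gene in the tables, 11 of them on the opposite strand.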

Additional observations from a re-analysis of the deposited data

Results flagged for a closer look

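The genotype effect differed between times by the interaction test for 7 members, which is what set them apart here. Between 6 and 0 h the log2 fold change of TTP-/- over WT cells was larger by 1.21 for *Man2b1* and by 0.61 for *Tpp1*. Between 9 and 0 h it was more positive by 1.00 for *Tpp1*, 0.93 for *Gm2a*, 0.92 for *Ctsb*, 0.84 for *Man2b1*, 0.81 for *Ctsa*, 0.67 for *Lgmn* and 0.53 for *Lamp1*. For *Lgmn* the effect went from -0.81 to -0.14, so that a lower level was no longer called, while the other 6 moved further above WT cells. For these differences a replicate was left out of 1 genotype at every time together. Without WT replicate 2 the *Man2b1*, *Ctsb*, *Ctsa*, *Gm2a* and *Lamp1* calls at 9 h were lost. The *Ctsa* call was also lost with the replicate block, on TPM and without TTP-/- replicate 1 or 2. The 9 h call of *Gm2a* was also lost without TTP-/- replicate 1, 2 or 3, and that of *Lamp1* without WT replicate 3 or TTP-/- replicate 1 or 2. *Ctsb* also lost its 9 h call without TTP-/- replicate 2, and *Man2b1* without TTP-/- replicate 1. The 6 h value of *Tpp1* lost its call with a pseudocount of 1 and when WT replicate 2, WT replicate 3, TTP-/- replicate 1 or TTP-/- replicate 2 was left out (0.53 to 0.65 over all 6), and that of *Man2b1* was kept in every setting. The summed macrophage markers were at 90.3 to 95.3 RPKM in WT against 440 to 640 RPKM in TTP-/- libraries at 9 h, and at 188 to 261 against 503 to 634 RPKM at 0 h, and their part in these differences was not tested.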

How the results depend on the processing

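No called member changed direction under any alternative. Of the calls, 8 of 17 at 0 h, 3 of 8 at 3 h, 9 of 16 at 6 h and 19 of 22 at 9 h were kept in every setting (a stricter adjusted p aside) and without every library. Over all alternatives 147 values of the 28 tested members lost a call, 78 gained one and 73 uncalled estimates changed sign. At an adjusted p of 0.01 the higher members were 8, 2, 9 and 17 at 0, 3, 6 and 9 h and the lower 1, 1, 1 and 0. The higher members at 3 h were 11 in 1 fit of 24 libraries, 12 on exon lengths and 16 with voom. The lower members under TPM were 1, 1 and 0 at 0, 3 and 9 h, with a filter at 5 FPKM 1, 0 and 1 at 3, 6 and 9 h, 1 at 9 h with no filter or a pseudocount of 1, and 2 at 6 h in 1 fit. With a pseudocount of 1, 1 member was more negative between 3 and 0 h and 1 more positive between 6 and 0 h.

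With the replicate number as a block, the higher members were 9, 8, 16 and 22 and the lower 1, 1, 1 and 0 at 0, 3, 6 and 9 h. Same-numbered libraries deviated together in every pair only at 6 h, where *Ctsc* alone gained a call. Correlations of the 12 same-numbered pairs ran from -0.582 to 0.504, with 5 above 0.1, and the best partner of a WT library bore its own number in 7 of 12. At 0 h the same-numbered pairs had 0.426, -0.582 and -0.453. The highest correlation of any pair was 0.707, between WT replicate 2 and TTP-/- replicate 3 at 0 h.

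Leaving out 1 library gave 8 to 17 higher and 1 to 3 lower members at 0 h, 2 to 19 and 1 to 3 at 3 h, 8 to 19 and 1 to 2 at 6 h, and 19 to 20 and 0 at 9 h. With 1 replicate of 1 genotype left out at every time together, the difference between 3 and 0 h had 0 to 1 more negative members. That between 6 and 0 h had 1 to 2 more positive, and that between 9 and 0 h 2 to 8. These fits have fewer samples.

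TPM moved the median of all genes from -0.04, -0.05, -0.06 and -0.05 to 0.08, 0.04, 0.06 and 0.08, and the share of called genes that were higher from 47.2, 43.5, 60.9 and 48.1% to 61.5, 59.5, 78.4 and 67.2%. Counts over all genes moved by more than 1.5 times in several settings. TPM gave 841, 792, 294 and 815 lower genes at 0, 3, 6 and 9 h against 1295, 1219, 559 and 1593, and voom, which tests 14115 to 14121 genes, gave 2527, 2318, 2078 and 3004 higher against 1156, 940, 869 and 1478. At 3 h, 1492 genes were higher and 1923 lower without WT replicate 1. The replicate block gave 712 higher and 676 lower at 0 h, 760 lower at 3 h and 1292 lower at 6 h, the loss of WT replicate 1 gave 1051 lower at 6 h, and 1 fit gave 1254 lower at 6 h. With no filter 2245, 1770, 1745 and 2623 genes were higher, and with a filter at 5 FPKM 339, 222, 248 and 395, by their numbers of genes tested. The depth limits *Ctsk* and *Tfeb*, with as few as 3 and 21 reads in a library.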
